A study of Mus musculus with 99 samples.

Results

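Ppara, the gene of the nuclear receptor PPAR-alpha, was followed across mouse hearts together with Pdk4, Angptl4, Ucp3, Acot1 and Acot2, which are known targets of that receptor. All probe sets that the platform annotation gave to 1 of these 6 genes were taken, 9 of the 22327 probe sets on the array that are not controls. Angptl4, Ucp3 and Acot2 had 2 probe sets each, and their names alone stand for the brighter of the 2. Transcript levels came from Affymetrix HT_MG-430A arrays, 1 per strain and 99 in all, made from whole hearts of male mice on a chow diet and a light-dark cycle with no treatment. The protocol gives an age of 16 weeks for all mice, although the age label runs from 16 to 113 weeks. The labels state neither the hour of collection nor whether food had been withdrawn.

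The arrays covered 11 BXH strains, 30 BXD strains, 15 AXB strains, 13 BXA strains and 28 classical inbred strains, plus CAST/EiJ and B6cC3-1/KccJ, which entered no comparison of groups. BXH strains are homozygous mosaics of C57BL/6J and C3H/HeJ, BXD strains of C57BL/6J and DBA/2J, and AXB and BXA strains of A/J and C57BL/6J from reciprocal crosses. The strains of a panel therefore share their 2 parents and are not unrelated. BXD24/TyJ and its Cep290 mutant line were averaged to 1 family, as were AXB19, AXB19a and AXB19b, which left 94 families, 29 of them BXD and 13 AXB. The Tlr4 mutant line BXD29-Tlr4<lps-2J>/J was counted among the BXD strains as a family of its own. No strain had a replicate array, so errors and p-values measure the spread between strains, technical spread included.

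PPAR-alpha binds DNA as a dimer with a retinoid X receptor and is switched on by fatty acids. In the heart and other tissues that burn fat it raises genes of fatty acid uptake and oxidation, and their transcripts climb when circulating fatty acids rise in fasting. Of the targets followed here, pyruvate dehydrogenase kinase 4 (Pdk4) holds back glucose oxidation, angiopoietin-like 4 (Angptl4) is a secreted inhibitor of lipoprotein lipase, and uncoupling protein 3 (Ucp3) is a carrier of the inner mitochondrial membrane. Acyl-CoA thioesterases 1 and 2 (Acot1 in the cytosol, Acot2 in mitochondria) release fatty acids from coenzyme A.

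Cardiomyocyte markers were high on every array, with a list mean of 12.18 to 12.66 log2 units, while the deposited values ran from 2.40 to 13.70 over all arrays. Transcripts of airway, liver, squamous epithelium, skeletal muscle or thymus exceeded their median over the arrays by over 2 log2 units on 37 arrays, which were 8 of 11 BXH, 9 of 30 BXD, 6 of 15 AXB, 4 of 13 BXA and 9 of 28 classical arrays among the groups compared. The titles are numbers of unstated meaning. They run from 3 to 394 in BXH, 473 to 670 in BXD, 481 to 683 in AXB, 518 to 674 in BXA and 40 to 456 in classical strains. BXD, AXB and BXA thus lie above the classical strains and BXH in this numbering without overlap. The age label rises with these numbers and separates the same groups, also without overlap. Differences across that divide cannot be told apart from labelled age or from whatever the numbers stand for. In whole hearts, fewer cells of a type and less RNA per cell cannot be told apart either.

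The receptor itself had 1 probe set. Ppara ran from 5.58 through a median of 6.15 to 7.07 log2 units in BXH strains, from 6.25 through 6.97 to 7.76 in BXD, from 6.21 through 6.68 to 7.18 in AXB, from 5.67 through 6.58 to 7.21 in BXA, and from 5.08 through 6.12 to 6.92 in classical strains. BXD hearts were the highest on balance and classical hearts the lowest, and every pair of groups overlapped. The 5 highest arrays of all 99 were BXD20/TyJ, BXD9/TyJ, BXD28/TyJ, BXD33/TyJ and BXD32/TyJ, and the 5 lowest were the classical strains NZB/BlNJ, MA/MyJ, LP/J, KK/HlJ and PL/J. CAST/EiJ stood at 7.41, above every classical strain. Its liver (10.73) and skeletal muscle (9.86) list means were the highest of all 99 arrays, and their part in its Ppara level was not tested.

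Pdk4 was among the brightest probe sets of these hearts, with only 57 probe sets (0.255%) brighter on average. Its values ran from 12.44 through 12.62 to 12.76 log2 units in BXH, from 10.72 through 12.56 to 12.77 in BXD, from 11.94 through 12.52 to 12.92 in AXB, from 12.07 through 12.41 to 12.80 in BXA, and from 12.20 through 12.59 to 12.81 in classical strains. All but 1 of the 97 arrays of these groups lay within about a log2 unit, and the exception was BXD9/TyJ. CAST/EiJ, at 11.94, was the second lowest array of all, and the part of its liver and skeletal muscle transcripts in this was not tested. Whether the top of the array's scale narrowed this range was not tested.

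Angptl4 was the most variable of the 6 genes in BXD. Its brighter probe set ran from 8.16 through 9.17 to 9.77 log2 units in BXH, from 5.86 through 8.45 to 9.54 in BXD, from 7.46 through 8.21 to 9.06 in AXB, from 7.14 through 8.05 to 9.38 in BXA, and from 8.22 through 8.84 to 10.13 in classical strains. BXD hearts reached far below all the others: BXD27/TyJ, BXD9/TyJ, BXD5/TyJ and BXD28/TyJ were the 4 lowest of the 99 arrays. The SD between BXD families was 0.92, at percentile 98.8 of the 13396 probe sets above the filter on dim signals, whose median SD in BXD was 0.22. In the other groups some member varied more: the SD of Angptl4 was 0.40 in BXH, beside 0.54 for Acot1 and 0.45 for Ppara, it was 0.61 over AXB and BXA families, beside 0.78 for the dimmer Ucp3 probe set, and it was 0.48 in classical strains, beside 0.53 for Ppara. The dimmer Angptl4 probe set stayed between 2.80 and 3.42 on all arrays, below the filter of 3.59, and followed the brighter one with an r of 0.10 across families. It is the 1 member of 9 that failed the filter.

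The brighter Ucp3 probe set had a lowest, median and highest level of 7.31, 7.87 and 8.32 log2 units in BXH, 5.10, 7.82 and 8.38 in BXD, 6.80, 7.59 and 8.05 in AXB, 6.91, 7.46 and 8.22 in BXA, and 6.92, 7.62 and 8.27 in classical strains. Group medians were close together, and only BXD had strains far below the rest. The dimmer Ucp3 probe set followed it with an r of 0.65 and spread differently: its SD was 0.78 over AXB and BXA families, beside 0.37 for the brighter one. Its highest array was C57BL/6J at 8.46, a parent of all 4 panels.

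Acot1 ran from 5.71 through 6.55 to 7.48 log2 units in BXH, from 4.13 through 6.24 to 7.24 in BXD, from 5.35 through 6.38 to 7.005 in AXB, from 5.47 through 6.52 to 6.89 in BXA, and from 5.05 through 6.40 to 7.38 in classical strains. The brighter Acot2 probe set ran from 8.31 through 8.98 to 9.79 in BXH, from 7.02 through 8.55 to 9.18 in BXD, from 7.82 through 8.87 to 9.42 in AXB, from 7.43 through 9.14 to 9.45 in BXA, and from 7.81 through 8.99 to 9.80 in classical strains. BXD9/TyJ was the lowest array for both genes, and C57BL/6J the highest for Acot2 and the second highest for Acot1. The dimmer Acot2 probe set was lowest in SWR/J, at 4.92, and highest in CE/J, at 7.86. Acot1 and Acot2 are close paralogs that sit next to each other, and the suffix (_s_at) in the name of the brighter Acot2 probe set marks probes that may bind more than 1 transcript, so their signals are uncertain as separate measures. The brighter Angptl4 probe set carries the same suffix, and whether its probes bind other transcripts was not tested.

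**Figure D1:**
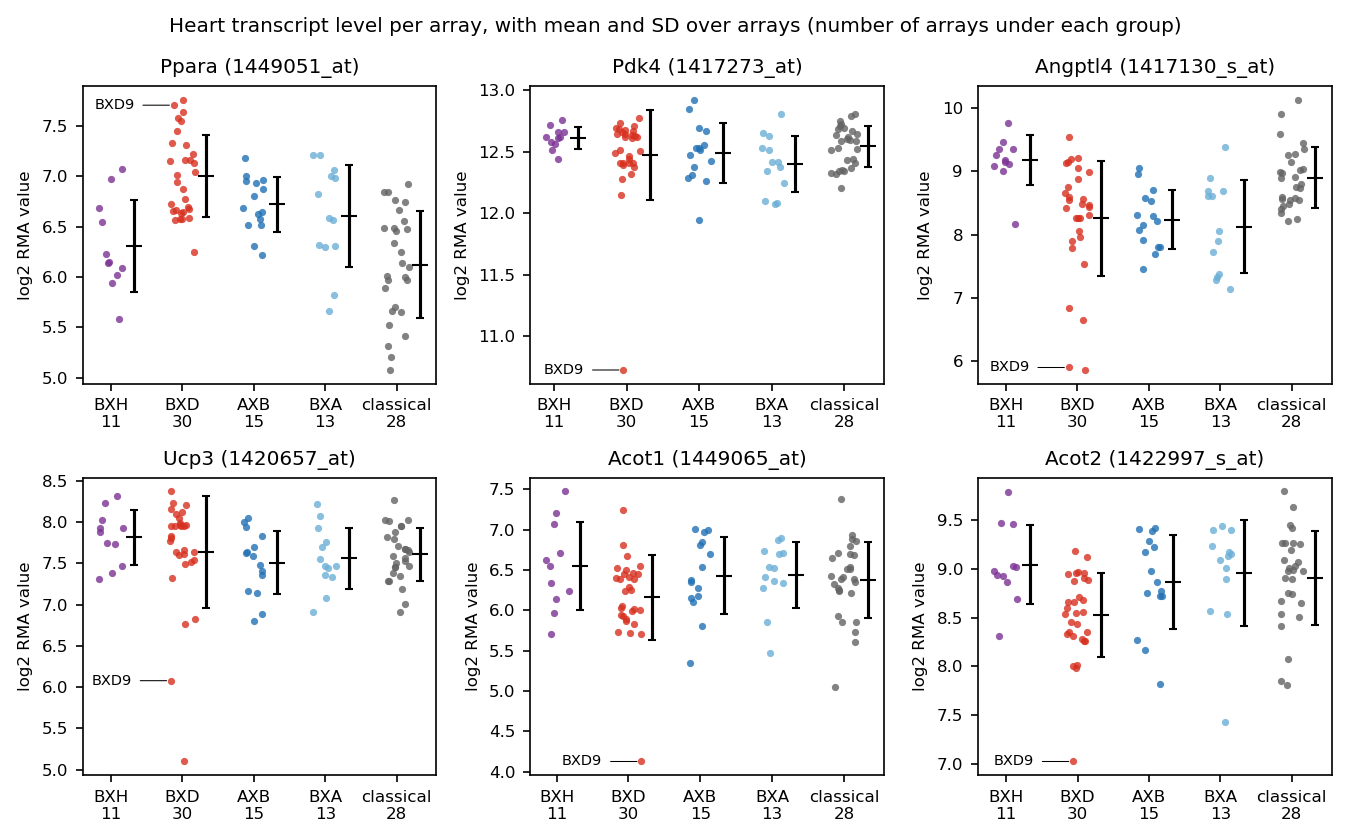
Log2 RMA value of the brightest probe set of each gene, 1 point per array, for BXH (11), BXD (30), AXB (15), BXA (13) and classical strains (28), with the mean and SD over arrays in black. The BXD9 array is marked: it is lowest of its group for Pdk4 (10.72), Acot1 (4.13) and Acot2 (7.02) and near the top for Ppara (7.70).

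Strains that differ by name only slightly show how far a single array can stray. The AXB19, AXB19a and AXB19b arrays read 8.53, 7.81 and 8.15 log2 units for Angptl4, an SD of 0.36, while the other 12 AXB families had an SD of 0.50. For Ucp3 the SD within this family was 0.39, beside 0.40 between the other AXB families, for Acot2 it was 0.34, beside 0.50, and for Acot1 it was 0.09, beside 0.52. BXD24/TyJ and its Cep290 mutant line differed by 0.76 for Angptl4 but by 0.01 for Ppara, 0.03 for Pdk4, 0.08 for Acot1, 0.09 for Acot2 and 0.18 for Ucp3. The last gave an SD of 0.12, beside 0.70 between the other 28 BXD families, so the 2 sets of near-identical genotypes did not give the same picture for Ucp3.

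The comparison of recombinant panels, which share C57BL/6J and differ in the other parent, asked whether the 6 genes differ by genetic background. Acot2 was lower in BXD than in AXB and BXA hearts, on both of its probe sets. For the brighter one the mean was 8.54 ± 0.44 log2 units in BXD (SD, n = 29) and 8.94 ± 0.50 in AXB and BXA (n = 26), a difference of -0.40 (SE 0.12, 1.32-fold lower, adjusted p = 0.0338). For the dimmer one the means were 6.35 ± 0.39 in BXD and 6.86 ± 0.49 in AXB and BXA, a difference of -0.50 (SE 0.12, adjusted p = 0.00269). The groups overlapped on both. These 2 were the only members of 9 called, while 7.48% of all 22327 probe sets were called in this comparison. With the Gapdh control difference, the level of its 3-prime minus that of its 5-prime probe set and a reading of RNA quality, as a covariate, neither Acot2 probe set was called (-0.30 with adjusted p = 0.305 and -0.37 with adjusted p = 0.107). The brighter one also missed the threshold without the arrays carrying transcripts of another organ (-0.32, adjusted p = 0.325) and without BXD9 and BXD27 (-0.34, adjusted p = 0.0527). The median Gapdh difference was -0.21 log2 units in BXD, -0.35 in AXB and -0.32 in BXA. Of 12 endothelial markers, 5 were called higher in BXD than in AXB and BXA and 0 lower, and the list mean had a median of 7.36 in BXD, 7.245 in AXB and 7.09 in BXA; its part in the Acot2 difference was not tested. Ppara was 0.31 higher in BXD but missed the threshold (adjusted p = 0.0615), and passed it under 4 alternatives, where the adjusted p was 0.0289 to 0.0498.

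The BXH panel stood apart from the other panels mainly in Angptl4. BXH hearts had 9.17 ± 0.40 log2 units of Angptl4 (SD, n = 11), against 8.26 ± 0.92 in BXD (n = 29) and 8.19 ± 0.61 in AXB and BXA (n = 26). The difference was 0.91 from BXD (SE 0.28, 1.88-fold, adjusted p = 0.0449) and 0.98 from AXB and BXA (SE 0.19, 1.98-fold, adjusted p = 0.00228). Ppara was lower in BXH than in BXD, with means of 6.31 ± 0.45 and 6.99 ± 0.41 and a difference of -0.68 (SE 0.14, adjusted p = 0.00301). Acot2 was 0.51 higher in BXH than in BXD (SE 0.15, adjusted p = 0.0339), and the dimmer Ucp3 probe set was 1.00 higher in BXH than in AXB and BXA (SE 0.23, adjusted p = 0.0113). That made 3 of 9 members called in BXH minus BXD, where 5.07% of all probe sets were called, and 2 of 9 in BXH minus AXB and BXA, where 3.01% were.

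Only 3 of the 11 BXH arrays were free of transcripts of another organ, and without the others no member was called in either BXH comparison (adjusted p of 0.230 for Ppara and 0.646 for Angptl4 against BXD, and 0.600 for Angptl4 against AXB and BXA). The differences themselves were -0.71, 0.63 and 0.75 log2 units there, beside -0.68, 0.91 and 0.98 over all families. The airway list mean had a median of 7.59 log2 units in BXH, 3.46 in BXD, 3.41 in AXB and 3.62 in BXA, and its part in these results was not tested. Angptl4 in BXH minus BXD also missed the threshold with an adipocyte mean as a covariate (0.77, adjusted p = 0.134), with a difference between clock genes of opposite phase as a covariate (0.58, adjusted p = 0.284) and with a mean trend and robust variances (adjusted p = 0.0575). The adipocyte mean used as a covariate, here and below, left out the PPAR-alpha target genes of the adipocyte list. The Acot2 difference in BXH minus BXD missed it without the organ arrays (0.53, adjusted p = 0.447) and with the Gapdh (0.49, 0.0918), adipocyte (0.46, 0.0905) or clock covariate (0.52, 0.0572).

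No member was called between the reciprocal panels AXB and BXA (13 families each), where 0% of all probe sets were called by limma and 2008 had an unadjusted p under 0.05, none of them a member. The differences of the 9 members lay between -0.11 and 0.16 log2 units, with intervals reaching 0.59 (Angptl4) and -0.61 (the dimmer Ucp3 probe set). The same count of 0 came from each of the other settings run for this pair of panels.

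Against the classical strains, the BXD, AXB and BXA panels had more Ppara and less Angptl4. Ppara averaged 6.99 ± 0.41 log2 units in BXD (SD, n = 29) and 6.12 ± 0.53 in classical strains (n = 28), a difference of 0.87 (SE 0.12, 1.83-fold, adjusted p = 8.62e-07). Angptl4 averaged 8.26 ± 0.92 in BXD and 8.90 ± 0.48 in classical strains, a difference of -0.64 (SE 0.19, 1.56-fold lower, adjusted p = 0.0152). In AXB and BXA (n = 26) Ppara was 0.56 above the classical strains (SE 0.13, 1.48-fold, adjusted p = 0.00256) and Angptl4 0.71 below them, a difference of -0.71 (SE 0.14, adjusted p = 0.000911). The 2 comparisons share the classical strains. The receptor was thus higher and this target lower in the same panels, with all groups overlapping.

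Acot2 was also lower in BXD than in classical strains, with a difference of -0.38 on the brighter probe set (SE 0.12, adjusted p = 0.0231) and -0.58 on the dimmer one (SE 0.13, adjusted p = 0.000948). Altogether 4 of 9 members were called in BXD minus classical, where 15.3% of all probe sets were, 2 of 9 in AXB and BXA minus classical, where 7.66% were, and 0 of 9 in BXH minus classical, where 0.103% were and 1 member had an unadjusted p under 0.05. In BXH minus classical the largest member difference was 0.59 for the dimmer Ucp3 probe set (95% interval 0.24 to 0.94, adjusted p = 0.191), and Ppara differed by 0.19 (95% interval -0.17 to 0.54). Pdk4 and Acot1 were called in none of the 7 comparisons. The Gapdh covariate removed both Acot2 calls in BXD minus classical (-0.28 with adjusted p = 0.314 and -0.35 with adjusted p = 0.191). The organ arrays, when left out, removed that of Angptl4 (-0.61, adjusted p = 0.0716) and of the brighter Acot2 probe set (-0.37, adjusted p = 0.139) in BXD, with 20 BXD families and 19 classical strains left, and that of Ppara in AXB and BXA (0.45, adjusted p = 0.131). Angptl4 in BXD minus classical was also lost with the adipocyte mean (-0.52, adjusted p = 0.0638) or the clock genes (-0.41, adjusted p = 0.111) as a covariate. With the clock genes the brighter Acot2 probe set in BXD minus classical stood at -0.34 (adjusted p = 0.0548). Endothelial markers were called higher there for 7 of 12 genes and lower for 0, and their part in the Acot2 difference was not tested.

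**Figure D2:**
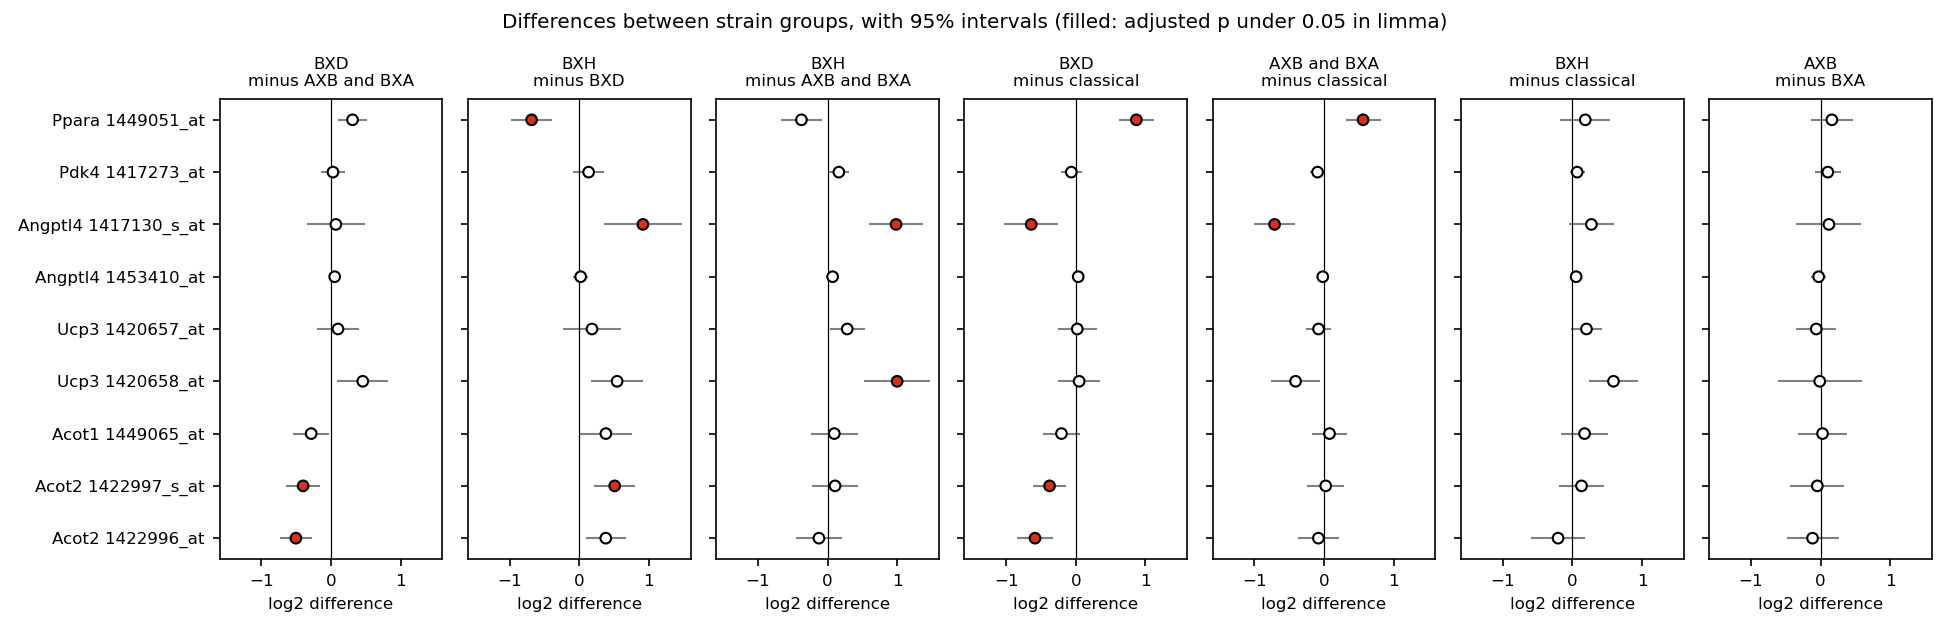
Difference in log2 units of each member probe set in the 7 comparisons, the first-named group minus the second, with 95% intervals from limma; filled points have an adjusted p under 0.05. Ppara is 0.87 higher in BXD and 0.56 higher in AXB and BXA than in classical strains, and Angptl4 is lower in both; no point is filled for BXH minus classical or AXB minus BXA.

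The parents give a second view of the same divide, as 1 array each and with no test. Ppara was 6.66 in DBA/2J and 5.70 in C57BL/6J, and 21 of 29 BXD families lay above both, 8 between them and 0 below. In AXB and BXA, 20 of 26 families lay above A/J (6.33) and C57BL/6J. Angptl4 was 10.13 in DBA/2J and 9.35 in C57BL/6J, and 28 of 29 BXD families lay below both. In BXH, the panel with the highest Angptl4, 7 of 11 strains also lay below both C3H/HeJ (9.59) and C57BL/6J. Pdk4, which was called in no comparison, lay below both parents in 28 of 29 BXD families and 10 of 11 BXH strains. These single parent arrays were themselves high among all 99, counted from the lowest. For Pdk4 C57BL/6J ranked 95, DBA/2J 91 and C3H/HeJ 89, and for Angptl4 they ranked 89, 99 and 96. A/J ranked 17 for Pdk4 and 49 for Angptl4. For the dimmer Acot2 probe set C3H/HeJ minus C57BL/6J was -1.79 and all 11 BXH strains lay between them, as they did for the brighter one (7.81 in C3H/HeJ, 9.80 in C57BL/6J) and for the dimmer Ucp3 probe set (7.12 in C3H/HeJ, 8.46 in C57BL/6J).

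Across the title numbers, pooled over groups, Ppara correlated at r = 0.49 (rho = 0.48) and Angptl4 at r = -0.52 (rho = -0.53), with an adjusted p of r of 0.000255 each over 102 relations (two-sided test with 100000 permutations, n = 94), and r was 0.51 and -0.51 without the 2 strains farthest in number. With each group centred on its mean, these fell to 0.02 for Ppara (adjusted p = 0.945) and -0.19 for Angptl4 (adjusted p = 0.205). Within groups Ppara gave r = -0.18 in BXH, 0.08 in BXD, -0.05 in AXB with BXA and 0.08 in classical strains, and Angptl4 gave -0.57, 0.10, -0.39 and -0.33 in the same order. The relation of Ppara to title number was therefore one between groups.

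How the 6 genes moved with each other from strain to strain was measured over the 15 pairs of their brightest probe sets in 94 families, with 100000 permutations (two-sided) and Benjamini-Hochberg adjustment over the 15 pairs. The smallest p these permutations can give is 1e-05, which becomes 5e-05 after adjustment where 3 pairs share it. By Pearson's r 12 pairs were called and by Spearman's rho 8, and 10 of 15 correlations were positive. The 5 negative ones were those of Ppara with each target.

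Pdk4, Angptl4 and Ucp3 formed 1 related trio. Pdk4 and Angptl4 had r = 0.65 and rho = 0.64 (adjusted p = 5e-05 for each), and r = 0.60 without the 2 strains farthest on Pdk4, BXD9 and AXB10. Within groups r was 0.27 in BXH (n = 11, adjusted p = 0.739 by permutation), 0.68 in BXD (n = 29), 0.71 in AXB and BXA (n = 26) and 0.51 in classical strains (n = 28), called in the last 3. Pdk4 and Ucp3 had r = 0.54 and rho = 0.54 (adjusted p = 0.000412 and 5e-05 by permutation), r = 0.42 without the farthest 2, and 0.53, 0.55, 0.49 and 0.49 within BXH, BXD, AXB with BXA and classical strains. These 4 values were alike, although only the last 2 passed the test (adjusted p = 0.352, 0.0628, 0.0443 and 0.0291 by permutation).

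Angptl4 and Ucp3 had r = 0.65 but rho = 0.44 (adjusted p = 5e-05 and 7.5e-05 by permutation), and r = 0.50 without BXD27 and BXD9. Within groups r was 0.59 in BXH, 0.83 in BXD, 0.67 in AXB with BXA and 0.24 in classical strains, called in BXD and in AXB with BXA only (adjusted p = 0.402 by permutation). Replacing Angptl4's probe set by the dim one left r at 0.04 with Ucp3 and 0.13 with Pdk4, and replacing that of Ucp3 by its dimmer one gave 0.44 with Angptl4 and 0.33 with Pdk4.

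**Figure D3:**
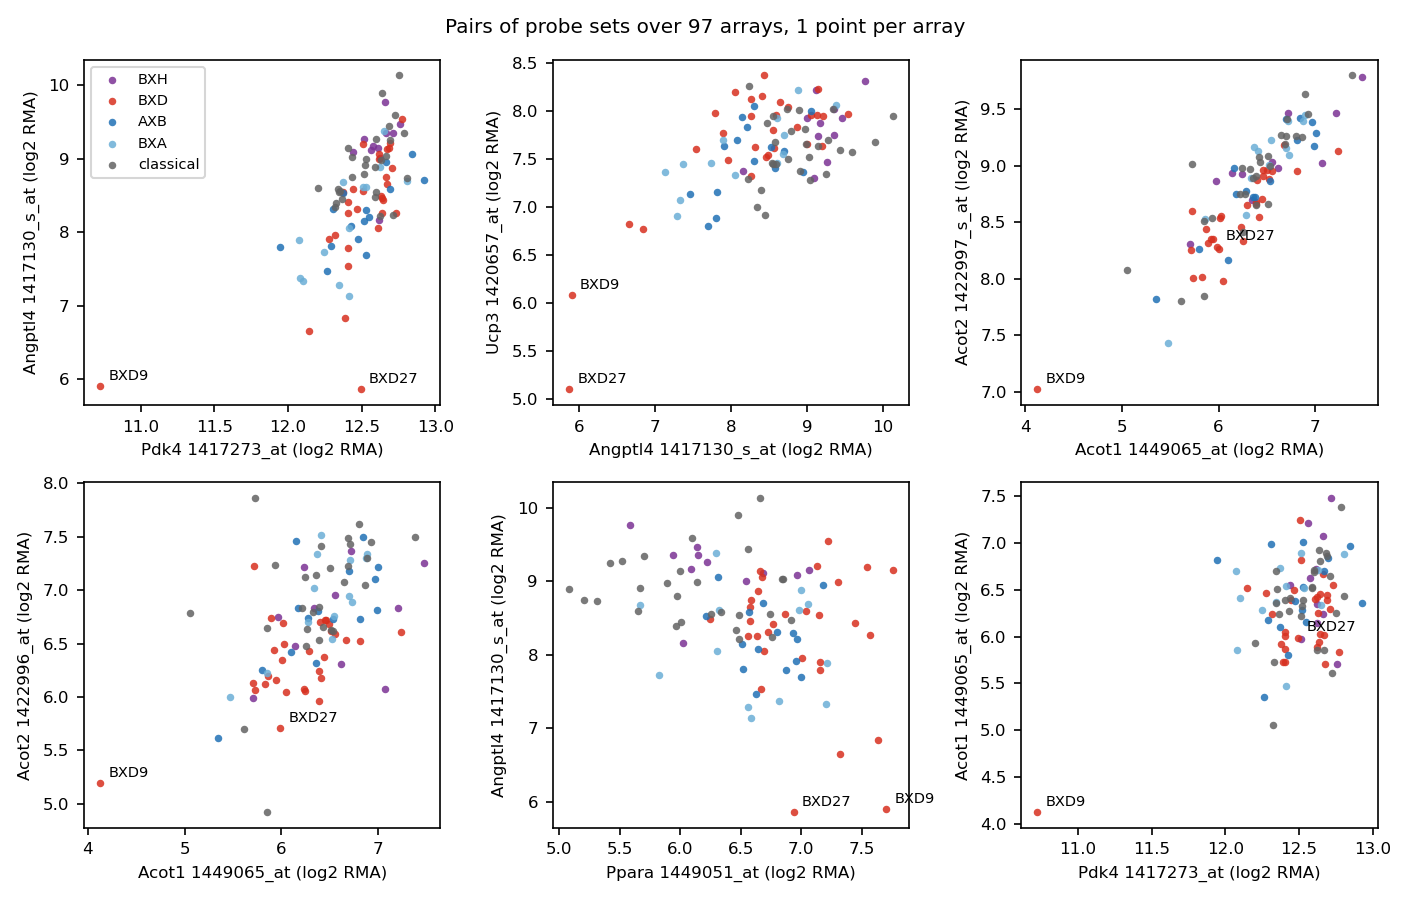
Pairs of probe sets over the 97 arrays of the compared groups, 1 point per array, both axes in log2 RMA units and coloured by group. Angptl4 rises with Pdk4 and with Ucp3; BXD9 is low on Pdk4, Angptl4, Ucp3, Acot1 and Acot2, and BXD27 is low on Angptl4 (5.86) and Ucp3 (5.10) with an ordinary Pdk4 (12.49).

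Acot1 and Acot2 were the closest pair, with r = 0.88 and rho = 0.88 (adjusted p = 5e-05 each, permutation) and 0.87 without BXD9 and AKR/J. It held within BXH (r = 0.86), BXD (0.91), AXB and BXA (0.92) and classical strains (0.85), each called. Against the dimmer Acot2 probe set Acot1 had r = 0.54, while the 2 Acot2 probe sets correlated at 0.79. The higher value thus belonged to the probe set whose probes may be shared between the 2 transcripts.

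Relations between the thioesterases and the trio were weaker and rested in part on 1 strain. The 6 pairs ran from r = 0.31 (Ucp3 and Acot2) to 0.45 (Pdk4 and Acot1), all called by r. Their rho ran from 0.16 to 0.26, and not all were called by rho. Pdk4 and Acot1 dropped from that r to 0.24 without BXD9 and AXB10, and Pdk4 and Acot2 had 0.16. Leaving out BXD9 alone took the called pairs from 12 to 7 of 15. With each group centred and BXD9 and BXD27 left out, both chosen after their values were seen, 7 pairs were called. These were the 3 of the trio (0.64, 0.53 and 0.55), Acot1 with Acot2 (0.87), Angptl4 and Ucp3 each with Acot1 (0.26 and 0.30) and Ucp3 with Acot2 (0.25).

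Ppara had a negative r with each of its targets when all groups were pooled. It had r = -0.36 and rho = -0.33 with Angptl4 (adjusted p = 0.0009 and 0.00447 by permutation) and r = -0.22 with Pdk4 (adjusted p = 0.0382; rho = -0.12, adjusted p = 0.302). Without NZB/BlNJ and MA/MyJ these were -0.37 and -0.24. With groups centred the values were -0.15 and -0.19, neither called (adjusted p = 0.196 and 0.075 by permutation), and within groups Ppara and Angptl4 ran from -0.24 to -0.05. Ppara and Pdk4 had r = -0.55 within BXH (n = 11), which was not called. The lowest r of any pair was -0.35 within BXD, -0.14 within AXB and BXA and -0.18 within classical strains. With Ucp3, Acot1 and Acot2 the pooled r of Ppara was -0.11, -0.15 and -0.20, none of them called (adjusted p = 0.287, 0.144 and 0.0612 by permutation).

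**Figure D4:**
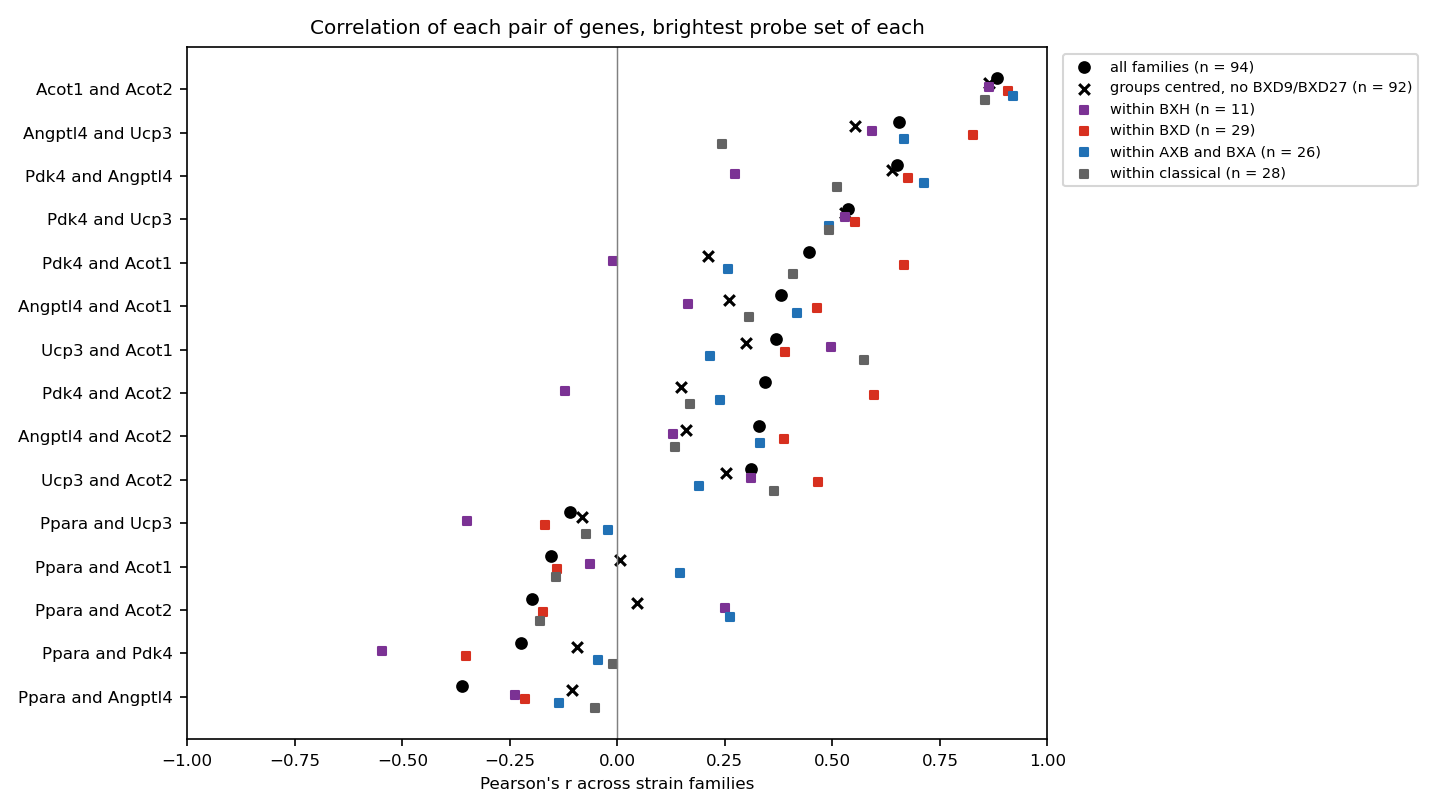
Pearson's r of each pair of genes (brightest probe sets) across strain families, over all 94, with groups centred and BXD9 and BXD27 left out, and within each group. Acot1 with Acot2 stays between 0.85 and 0.92, the pairs of Pdk4, Angptl4 and Ucp3 lie between 0.24 and 0.83, and those of Ppara lie on both sides of 0.

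Measures outside the list were set against the 6 genes in 102 relations with groups centred. The strongest was with the circadian clock. The heart's clock shows in transcripts of opposite phase, such as those of the output factor Dbp and of the activator Arntl, so the mean of Dbp, Tef, Per3 and Nr1d2 minus the mean of Arntl and Npas2 was taken per array and is called the clock difference. It had a median of 2.48 log2 units in BXH, 3.41 in BXD, 3.18 in AXB, 3.84 in BXA and 2.51 in classical strains, and ran from 1.37 to 4.96 over the 99 arrays. Strains therefore differed widely in it within every group, and BXH and classical strains had the lower medians.

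Pdk4 fell as the clock difference rose, with r = -0.59 and rho = -0.68 (adjusted p = 0.00051 each by permutation, n = 94), and r = -0.60 without AKR/J and FVB/NJ. Its p before adjustment was the smallest that these permutations can give, shared with that of Angptl4. Within groups r was -0.19 in BXH, -0.56 in BXD, -0.80 in AXB with BXA and -0.64 in classical strains. Angptl4 had r = -0.49 and rho = -0.58 (adjusted p = 0.00051 each, permutation), and -0.49 without the same strains, with -0.11, -0.44, -0.66 and -0.59 within those 4 groups in that order. For Ucp3 r was -0.09 (adjusted p = 0.608), for Acot1 -0.27 (0.149), for Acot2 -0.18 (0.459) and for Ppara 0.15 (0.530), none called. After the clock difference was regressed out with groups centred, an alternative added once it had been seen, Pdk4 and Angptl4 still had r = 0.51 (adjusted p = 0.0027 by permutation), Pdk4 and Ucp3 0.59 and Angptl4 and Ucp3 0.76.

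**Figure D5:**
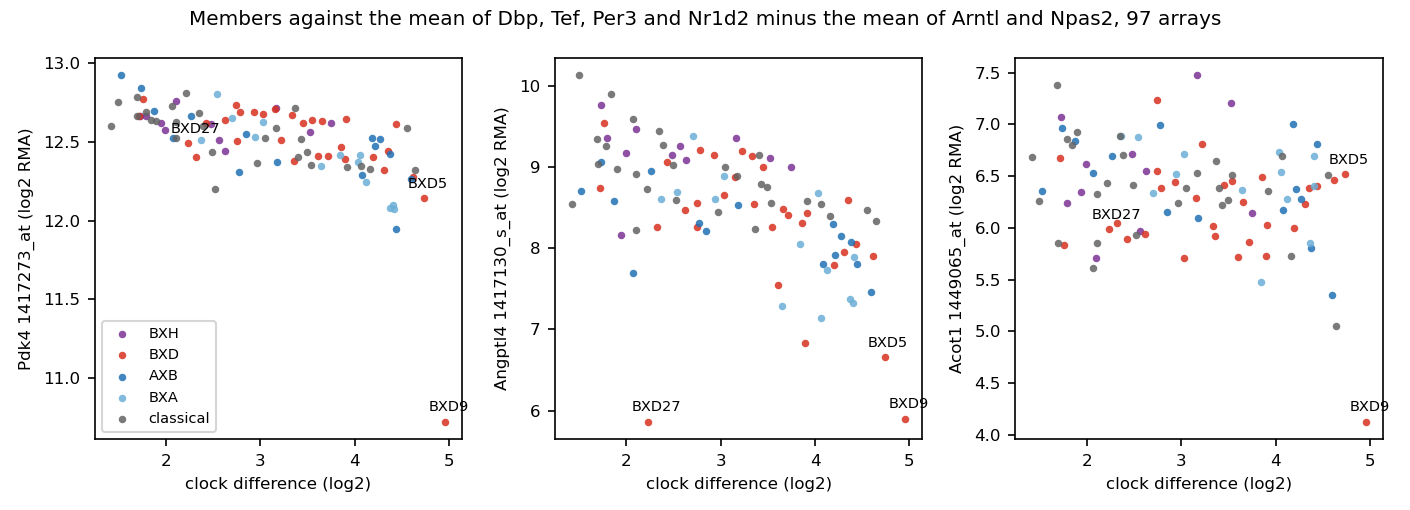
Pdk4, Angptl4 and Acot1 (log2 RMA) against the clock difference (mean of Dbp, Tef, Per3 and Nr1d2 minus mean of Arntl and Npas2, log2 units), 1 point per array over 97 arrays, coloured by group. Pdk4 and Angptl4 are lower where the clock difference is higher. BXD9 has the highest clock difference (4.96) and the lowest Pdk4 (10.72). BXD27 has a low Angptl4 at a clock difference of 2.23, rank 24 of 99 from the lowest.

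The other 3 called relations were with the endothelial list mean, at r = 0.35 for Pdk4 and for Angptl4 (rho = 0.37 and 0.36, adjusted p of r = 0.0079 each by permutation) and -0.33 for Acot2 (adjusted p = 0.0226; rho = -0.31, adjusted p = 0.0579). Without 129X1/SvJ and BXH8/TyJ they were 0.40, 0.39 and -0.32. Within groups the Pdk4 relation ran from 0.33 to 0.51, that of Angptl4 from 0.24 to 0.43, and that of Acot2 from -0.51 to -0.08. Without BXD9 and BXD27 the value for Pdk4 within BXD was 0.11. Without the arrays carrying transcripts of another organ, Angptl4 stayed called (adjusted p = 0.0493) and Pdk4 (0.0706) and Acot2 (0.273) did not. The list mean ran from 6.68 to 7.81 log2 units over the arrays, and its part in the member values was not tested. Adipocyte, brown fat, skeletal muscle, liver and airway list means had no called relation with any of the 6 genes, nor had the mean of the glucocorticoid-induced genes Fkbp5, Tsc22d3, Zbtb16 and Klf9 (r = 0.22 with Pdk4, adjusted p = 0.284).

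BXD9/TyJ was the strain farthest from the others. Its Pdk4 level of 10.72 was 1.89 log2 units (3.69-fold) below the median of the other BXD arrays, and its Acot1 level of 4.13 was 2.12 (4.35-fold) below theirs. Angptl4 stood at 5.90 (5.91-fold below), Ucp3 at 6.08 (3.38-fold below) and Acot2 at 7.02 (2.89-fold below). All 5 targets, by their brighter probe sets, were thus the lowest or second lowest of 99 arrays, while Ppara, at 7.70, was the second highest. The clock difference was the highest of all arrays (4.96, median 3.15) and the cardiomyocyte list mean was ordinary (12.55). The airway list mean was 3.38 (rank 28 of 99, median 3.58), and the liver list mean was low, at 3.70 (rank 6 of 99, median 4.22). The adipocyte list mean was low too, at 5.63 (rank 6 of 99, median 6.30), and the endothelial one was the lowest of the BXD arrays, at 7.07 (rank 18 of 99, median 7.22). With 1 array, strain, animal and day cannot be told apart.

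BXD27/TyJ had a different pattern. Angptl4 was at 5.86 (6.08-fold below the median of the other BXD arrays) and both Ucp3 probe sets were the lowest of 99 arrays, at 5.10 and 5.20, but Pdk4 (12.49, rank 40 from the lowest) and Ppara (6.94) were ordinary. Acot1 was at 5.99 (rank 22), Acot2 at 8.29 (rank 14) and the dimmer Acot2 probe set at 5.71 (rank 6). The mean of glucocorticoid-induced genes in BXD27/TyJ was the highest of all arrays (9.63, median 8.23), and its airway list mean was 6.93 (median 3.58). BXD28/TyJ and BXD5/TyJ had low Angptl4 (6.84 and 6.66) and Ucp3 (6.77 and 6.83) as well. BXD5/TyJ kept Acot1 at 6.52, rank 63 of 99, with the second highest clock difference (4.74), while BXD28/TyJ had Acot1 at 5.73, rank 10. These strains were singled out after their values were seen.

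The genes whose pattern across the 94 centred families was most like each member were read from 7511 other genes, as a description. For Pdk4 the closest was Arntl (r = 0.66), the clock activator, ahead of Angptl4 (0.65), the stress response gene Ppp1r15a (0.61), the endothelial claudin Cldn5 (0.59), Tbc1d17 (0.58) and Pnpla7 (0.57), and the most opposed were Fgf16 (-0.63), Dbp (-0.59) and Smim14 (-0.56). For Angptl4 they were Ucp3 (0.70), Pdk4 (0.65), Cldn5 (0.65), Tpst1 (0.62), Klf10 (0.61) and Txnip (0.57), with Dbp, the sarcomere gene Tcap (both -0.51) and Per2 (-0.49) most opposed. Clock genes thus appeared at both ends of the Pdk4 list and at the lower end of the Angptl4 list.

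Ucp3 was closest to Angptl4 (0.70), the acyltransferase gene Gpam (0.62), Pdk4 (0.53), Tpst1 (0.53), Txnip (0.52) and the lipase gene Mgll (0.48), and most opposed to Ppp1r3c (-0.60), a glycogen-targeting subunit, Cab39l (-0.48) and H3c14 (-0.41). Without BXD9 and BXD27 the last 2 had -0.13 and 0.05, and Tpst1 0.26. Acot1 was closest to Acot2 (0.88), Mlycd (0.65), which breaks down malonyl-CoA, the fatty acid transporter Slc27a1 (0.62), the lipid droplet gene Plin5 (0.61), Eci2 (0.58) and Cpt1a (0.54), and Acot2 to Acot1, Lpcat3 (0.60), Plin5 (0.59), Mlycd (0.57), Eci2 (0.54) and Slc27a1 (0.53). Those most opposed to Acot1 were Emp1 (-0.53) and the collagen genes Col6a2 (-0.52) and Col5a1 (-0.50), and those most opposed to Acot2 were Tspan9 (-0.54), the syndecan Sdc3 (-0.52) and the procollagen enhancer Pcolce (-0.52).

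Ppara had no close partner: its highest values were those of Yaf2 (0.43), Tmem268 (0.42), Dcun1d5 (0.40), Pik3r1 (0.40), Hccs (0.39) and Tmem129 (0.39), and its lowest those of Jup (-0.49), Add1 (-0.44) and Ypel3 (-0.43). Pdk4 ranked 6998 of the 7511 genes by r with Ppara, Angptl4 6622, Ucp3 6162, Acot1 5377 and Acot2 4271. Acot2 was thus near the middle of that order. Without BXD9 and BXD27 r with Ppara was 0.05 for Acot2 and 0.0067 for Acot1.

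A wider list of 50 further PPAR-alpha target genes on the array, 44 of them above the filter, followed the members to different degrees. Its median r with groups centred was 0.26 with Acot2, 0.21 with Acot1, 0.17 with Ucp3, 0.13 with Angptl4, 0.09 with Pdk4 and 0.003 with Ppara, while the median over all 7511 genes lay between -0.01 and 0.01 for each. Of the 44 genes, 39 had a positive r with Acot2, 38 with Acot1, 36 with Ucp3, 33 with Angptl4, 29 with Pdk4 and 23 with Ppara. The list medians without BXD9 and BXD27 were 0.23, 0.21, 0.16, 0.10, 0.04 and 0.03 in the same order. Single genes, chosen after their values were seen, split the members too: the oxidation gene Ehhadh had r = 0.49 with Acot1 and 0.44 with Pdk4, Plin5 had 0.61 with Acot1 and 0.14 with Ucp3, and the fatty acid binding protein gene Fabp4 had 0.54 with Pdk4 and 0.07 with Acot2.

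In the comparisons without BXH these 50 genes were called at rates near those of all probe sets. In BXD minus classical 7 were higher and 1 lower, where 15.3% of all probe sets were called, with a list median of 0.04 log2 units beside 0.01 over all probe sets. Hadh, of mitochondrial beta-oxidation, was 0.42 higher (adjusted p = 6.28e-05), Ehhadh of the peroxisomal pathway 0.35 (0.0364), the thiolase Acaa1a 0.30 (0.0103) and Mlycd 0.20 (0.0314), and medium-chain acyl-CoA dehydrogenase Acadm differed by -0.10 (0.0187). Of 12 liver markers 3 were called higher in this comparison and 0 lower, with a list median of 0.55. Arrays with transcripts of the liver were 2 BXD and 0 classical ones, and their part in these genes was not tested. In AXB and BXA minus classical, where 7.66% of all probe sets were called, 4 were higher and 1 lower (list median 0.04), among them the omega-hydroxylase Cyp4a10 (1.09, adjusted p = 0.0391), Ehhadh (0.47, 0.00325), Hadh (0.30, 0.0102) and lipoprotein lipase Lpl (0.09, 0.00934), with Txnip at -0.14 (0.0281). Liver markers moved with them: 8 of 12 were called in that comparison, all higher, with a list median of 1.10, and arrays with transcripts of the liver were 4 AXB, 3 BXA and 0 classical ones. Their part in Cyp4a10 and Ehhadh was not tested. In BXD minus AXB and BXA, where 7.48% were called, Cpt2 (0.13, adjusted p = 0.0172) and Hadh (0.12, 0.00102) were higher and Etfa lower (-0.09, 0.0475). By limma 0 of the 50 were called in BXH minus BXD, BXH minus AXB and BXA, BXH minus classical and AXB minus BXA, where 5.07%, 3.01%, 0.103% and 0% of all probe sets were, and 5, 6, 9 and 4 of the 50 had an unadjusted p under 0.05.

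Partners and relatives of the members were called in a few cases. In BXD minus AXB and BXA, 1 of 20 partners and 2 of 16 relatives were called, beside 7.48% of all probe sets. In BXD minus classical these were 4 and 2, beside 15.3%. In AXB and BXA minus classical they were 2 and 3, beside 7.66%. In BXH minus BXD they were 0 and 2, beside 5.07%, and in BXH minus AXB and BXA 0 and 1, beside 3.01%. Of 20 genes of receptor partners and coactivators, the retinoid X receptor Rxra was higher in BXD (0.37, adjusted p = 0.000303) and in AXB and BXA (0.27, 0.0208) than in classical strains. Lpin1, a coactivator of PPAR-alpha, was 0.49 higher in BXD than in AXB and BXA (adjusted p = 0.00268) and 0.49 higher than in classical strains (0.000484). Ncoa1 was 0.17 higher in BXD than in classical strains (0.00589), Cited2 differed by -0.24 there (0.0258), and Esrra was 0.15 higher in AXB and BXA (0.0455). The relatives were 16 kinase, pyruvate dehydrogenase and thioesterase genes, Pdk4 itself among them. The kinase Pdk2 was 0.51 higher in BXD than in AXB and BXA (adjusted p = 0.00044) and 0.32 higher than in classical strains (0.0104). It was lower in BXH than in BXD, with a difference of -0.68 (9.41e-05). The paralog Pdk2 was thus called in 3 comparisons in which Pdk4 was not. Acot7 differed by 0.14 in BXD minus AXB and BXA (0.018) and -0.29 in BXH minus BXD (0.000487). Pdhb, a pyruvate dehydrogenase subunit, differed by -0.21 in BXH minus AXB and BXA (0.00296) and by 0.10 in AXB and BXA minus classical (0.0487), where Dlat (0.12, 0.0296) and Acot13 (0.09, 0.0351) were higher too. Acot13 was 0.08 higher in BXD than in classical strains (0.0493).

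In BXH minus BXD 4 of 15 clock genes were called, beside 5.07% of all probe sets. In BXH minus AXB and BXA 3 were, beside 3.01%. In BXD minus classical 2 were, beside 15.3%, and in AXB and BXA minus classical 4, beside 7.66%. Per3 (-0.75, adjusted p = 0.015), Per1 (-0.61), Tef (-0.57) and Nr1d2 (-0.35) were lower in BXH than in BXD. Tef (0.56) and Per1 (0.43) were higher in BXD than in classical strains. Per1 (-0.51), Per2 (-0.49) and Nr1d2 (-0.45) were lower in BXH than in AXB and BXA. Per2 (0.39), Tef (0.34) and Per1 (0.34) were higher in AXB and BXA than in classical strains, and Npas2 was lower there (-0.17). With groups centred, the 14 clock genes above the filter had a median r of -0.34 with Pdk4, -0.32 with Angptl4 and -0.07 with Ucp3. Of 25 genes of fasting, FoxO factors or glucocorticoids, 6 were called in BXD minus classical, where 15.3% of all probe sets were. The growth arrest gene Gadd45a (0.39), Klf9 (0.33) and the kinase Sgk1 (0.30) were higher there, and Tsc22d3 (-0.46), Cebpd (-0.42) and Errfi1 (-0.39) were lower. In AXB and BXA minus classical, where 7.66% of all probe sets were called, Klf9 was higher (0.27), and Cebpd (-0.42), Ccng2 (-0.31) and Txnip (-0.14) were lower. In BXD minus AXB and BXA, where 7.48% were called, Gadd45a was higher (0.54) and Tsc22d3 lower (-0.33). Genes of this list thus moved both ways between these groups. With groups centred, 21 of the 24 above the filter had a positive r with Pdk4 (median 0.21), against 6 of 24 with Ucp3 (median -0.10). Over all genes 50.8% were positive with Pdk4 and 50.4% with Ucp3. Without BXD9 and BXD27 the list median was 0.20 with Pdk4 and 0.04 with Ucp3, so the negative sign for Ucp3 rested on those 2 arrays. Of 14 lipogenic genes, Dgat2, which completes triglyceride synthesis, was 0.55 higher in BXD (adjusted p = 5.57e-07) and 0.37 higher in AXB and BXA than in classical strains. Acacb (0.31, 0.00154) and Gpam (0.20, 0.0234) were higher in BXD than in classical strains, and fatty acid synthase Fasn was 1.37 higher in BXH than in BXD (0.0437). That made 3 of 14 called in BXD minus classical, beside 15.3% of all probe sets. It was 1 in AXB and BXA minus classical (7.66%) and 1 in BXH minus BXD (5.07%).

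The stretches just before the start sites were read for 5 of the 6 genes (Ppara, Pdk4, Ucp3, Acot1 and Acot2) from RefSeq, build GRCm38.p6. Direct repeats of AGGTCA with 1 base between are the classical element of PPAR and retinoid X receptor dimers, and GTAAACA is the element of FoxO factors, which act in fasting. The 250 bases before the start are shown for Ucp3 and Pdk4, which moved together across strains yet differ here, on the strand of each gene, 5′ to 3′, with AGGTCA in capitals.
Ucp3, chr7:100472741-100472990, plus strand: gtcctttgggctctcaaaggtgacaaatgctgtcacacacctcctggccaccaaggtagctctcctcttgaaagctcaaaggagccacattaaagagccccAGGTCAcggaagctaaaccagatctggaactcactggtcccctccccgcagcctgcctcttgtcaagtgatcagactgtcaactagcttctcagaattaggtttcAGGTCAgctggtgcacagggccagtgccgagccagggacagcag
Pdk4, chr6:5496279-5496528, minus strand: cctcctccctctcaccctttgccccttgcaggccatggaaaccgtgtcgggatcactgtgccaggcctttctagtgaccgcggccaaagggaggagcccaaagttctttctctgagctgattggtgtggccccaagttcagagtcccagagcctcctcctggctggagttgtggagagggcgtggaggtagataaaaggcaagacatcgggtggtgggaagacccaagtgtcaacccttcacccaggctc

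With both strands searched, AGGTCA occurred at 2 places in Ucp3, both on the strand of the gene, at -149 to -144 and -44 to -39 counted from the start, and at 0 in the other 4, while 14.02% of 32851 mouse promoter windows of the same length hold it. The direct repeat of AGGTCA with any 1 base between (0.0335% of windows), the same repeat with the fourth base of each copy left free, which takes in every match of the stricter form (0.338%), and GTAAACA (3.17%) were in none of the 5. AGGTCA itself lies inside the stricter repeat. A match is a description of letters and not a binding site, and no match says only that these letters are not in these windows.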

How the data were processed

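The deposited series matrix holds log2 values per probe set, which the authors made with GCOS and RMA per the submitters' processing notes; versions are not given in the sources used here, and RMA pulls arrays to 1 distribution (array medians 3.97 to 4.07). Of 22416 deposited probe sets 89 were controls, 17783 had 1 gene symbol in the platform annotation, 284 several and 4349 none here, and 17759 symbols matched RefSeq, which gave 11725 named genes. The number of arrays limits the precision.

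Differences between groups came from limma (version 3.58.1, R version 4.3.3; lmFit and eBayes on only the groups compared, Benjamini-Hochberg over 22327 probe sets, threshold 0.05). Correlations and their 100000 two-sided permutations used numpy 2.4.6, with ranks from scipy 1.17.1. They were adjusted over 15 pairs or 102 relations, on the brightest probe set of a gene. Dim probe sets were those with a mean under the 40th percentile, 3.59 log2 units. Both tests were checked on simulated data. The labels name no batch.

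The members, gene lists, marker lists and tests were chosen with earlier results of these data known. The text names all member probe sets, up to 4 called genes of largest size in each direction per list and comparison, and for each member the 6 highest and 3 lowest genes by r. Other genes are said to be chosen after their values were seen. Alternatives were other filters, limma with trend and robust variances, repeated quantile normalization, each array on its own, leaving out arrays with transcripts of another organ, and Gapdh and adipocyte covariates. The adipocyte covariate was the list mean without PPAR-alpha target genes. Leaving out BXD9 or BXD27 and the clock covariate were added after seeing the data. Promoters came from RefSeq tables of GRCm38.p6, matched by symbol.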

Additional observations from a re-analysis of the deposited data

How the results depend on the processing

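The 13 called member differences kept their direction in all 134 alternatives run on them and stayed called in 111. The 12 called pairs kept their call in 164 of 228, and the 5 called relations to outside measures in 12 of 15. The cause of the changes below was not tested. Leaving out the organ arrays also left fewer families, and the parts of these in a change cannot be told apart. Called probe sets in BXD minus AXB and BXA (1669) were 1099 with the brightest probe set per gene, 786 without the arrays with transcripts of another organ and 608 with the Gapdh covariate, and called members (2) were 1 under each of the last 2. The 1 called with Gapdh was higher in BXD and was neither of the 2 Acot2 probe sets, which were both lower. In BXH minus BXD, 1133 called probe sets became 120 without organ arrays, 673 with Gapdh and 734 with the adipocyte mean, and 3 members became 0 without organ arrays, 1 with the adipocyte mean and 1 with the clock covariate. In BXH minus AXB and BXA, 673 became 27 without organ arrays and 402 with the adipocyte mean, and 2 members became 1 (brightest probe set) and 0 (organ arrays). BXH minus classical had 23 and, without organ arrays, 0. In BXD minus classical, 3423 became 1983 (brightest), 1776 (organ arrays) and 1184 (Gapdh), and 4 members became 2 without organ arrays, with Gapdh and with the clock covariate. In AXB and BXA minus classical, 1711 became 1091 (brightest) and 591 (organ arrays), and 2 members became 1 without organ arrays. Called pairs (12) were 1 within BXH, 7 within BXD, 4 within AXB and BXA, 4 within classical strains, 7 without BXD9, 7 without BXD9 and BXD27, 7 with groups centred as well, and 6 with the dimmer Angptl4 probe set. Called outside relations (5) were 10 with no centring and 3 without organ arrays.

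Changes of sign fell mostly on differences that were not called. With the Gapdh covariate, in BXD minus AXB and BXA, Pdk4 turned to -0.0185 and Angptl4 to -0.128, Acot1 in AXB minus BXA to -0.00575, the dimmer Angptl4 probe set in BXH minus BXD to -0.00212, Ucp3 in BXD minus classical to -0.0925 and the dimmer Acot2 probe set in AXB and BXA minus classical to 0.0181. Without organ arrays, in AXB minus BXA, Angptl4 turned to -0.00853, the dimmer Ucp3 probe set to 0.0817 and Acot1 to -0.0777. There, too, the dimmer Acot2 probe set turned to 0.14 in BXH minus AXB and BXA and 0.077 in BXH minus classical, and in AXB and BXA minus classical the dimmer Angptl4 probe set turned to 0.0244, Acot1 to -0.0282 and Acot2 to -0.0533. With each array on its own, the dimmer Ucp3 probe set in AXB minus BXA turned to 0.101, Acot1 to -0.00872 and Acot2 in AXB and BXA minus classical to -0.00187. With the adipocyte mean the dimmer Ucp3 probe set in AXB minus BXA turned to 0.00162. With the clock covariate, Angptl4 in AXB minus BXA turned to -0.0619, Acot1 there to -0.0595, Pdk4 in BXH minus BXD to -0.0356, the dimmer Angptl4 probe set there to -0.0139, Acot1 in BXH minus AXB and BXA to -0.00963 and Pdk4 in BXD minus classical to 0.0364. Pdk4 in BXD minus classical was 0.000448 without BXD9 and BXD27. The r of Ppara and Acot1 turned to 0.15 within AXB and BXA and 0.00666 with groups centred and without BXD9 and BXD27, and that of Ppara and Acot2 to 0.25 within BXH, 0.26 within AXB and BXA, 0.0455 with groups centred and without both strains and 0.0105 with the clock regressed out. Within BXH the r of Pdk4 was -0.0108 with Acot1 and -0.12 with Acot2, and with its dimmer probe set that of Angptl4 was -0.0231 with Acot1 and -0.0501 with Acot2. Counting each array on its own was not run for BXH minus classical, which has no near-identical strains. No paired analysis was possible because the labels give no shared replicate numbers.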
